A study of Mus musculus with 8 samples.

Results

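The 10 genes described here encode members of the carbonic anhydrase family: Car2, Car3, Car4, Car7, Car8, Car10, Car11, Car12, Car13 and Car14. They are 10 of the 48709 genes listed in each count file, and 9 of them were among the 16287 genes with enough reads to be tested. The members were chosen by name and family, and also on the measured control against dcKO_Nex-Cre difference of these same libraries, in which Car4 was higher. Their values in that contrast are therefore given as a description, and the adjusted p that chose Car4 is printed as such and supports nothing.

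RNA-seq of the postnatal day 1 (P1) mouse cortex was available for 8 libraries, 4 control and 4 dcKO_Nex-Cre, each made from total RNA of whole tissue. In the dcKO_Nex-Cre cortex, floxed alleles of BAF155 (gene Smarcc1) and BAF170 (gene Smarcc2), scaffold subunits of the BAF chromatin remodelling complex, were deleted by a Cre recombinase expressed from the Nex (Neurod6) locus, which is active in postmitotic projection neurons. Per the study's methods, controls were heterozygous for the floxed alleles (BAF155fl/+, BAF170fl/+) and carried no Cre, on a C57BL6/J background; the labels themselves name only control or dcKO and the age, and the Nex-Cre line was taken from the study. Glia, interneurons, vessel cells and blood keep the 2 genes, so that a change in a whole-tissue library may sit in deleted or undeleted cells, and an effect of Cre itself and an effect of the deletion cannot be told apart. The libraries are separate samples per the labels, with nothing that says they are separate animals, so the p-values measure the spread between these samples.

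Carbonic anhydrases catalyse the reversible hydration of CO2 to bicarbonate and a proton, using a zinc ion held by histidine side chains. They are sorted by where the enzyme sits: Car2, Car3, Car7 and Car13 are cytosolic, Car4 is anchored to the outer face of the membrane, and Car12 and Car14 are transmembrane proteins with an extracellular catalytic domain. Car8, Car10 and Car11 are carbonic anhydrase-related proteins, which keep the fold but lack the activity. In brain, Car4 lines the capillary endothelium, Car2 is known from oligodendrocytes, choroid plexus and erythrocytes, Car7 from neurons, and Car12 from choroid plexus.

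What separates the catalytic genes from the related ones can be read in the coding sequence around the first pair of zinc-binding histidines. The windows shown are 24 bases each, read 5′ to 3′ on the coding strand from GENCODE M21 transcripts of GRCm38, and the capitals mark the codons aligned to histidines 94 and 96 of Car2, counted from 1 at the start methionine of the translated Car2 protein. All lie within coding exons.
Car2, chr3:14895063-14895086, plus strand, exon 3: cagtttCACtttCACtggggctca
Car3, chr3:14866844-14866867, plus strand, exon 3: caattcCATcttCACtggggctcc
Car7, chr8:104547728-104547751, plus strand, exon 3: cagctcCACttcCACtggggcaag
Car13, chr3:14650700-14650723, plus strand, exon 3: cagttcCATttgCACtgggggtca
Car4, chr11:84964161-84964184, plus strand, exon 4: cagttgCACctgCACtggtcaaat
Car12, chr9:66747641-66747664, plus strand, exon 4: cagctgCACttgCACtgggggaac
Car14, chr3:95900300-95900323, minus strand, exon 4: cagctcCACctgCACtggggtcag
Car8, chr4:8221604-8221627, minus strand, exon 3: gaagttAGAtttCACtggggaaga
Car10, chr11:93490600-93490623, plus strand, exon 5: gaaatcCGGctaCACtttgggagt
Car11, chr7:45702542-45702565, plus strand, exon 4: gaactgCGCctgCTAtttggagct
The 7 catalytic members had a histidine codon (CAC or CAT) at every zinc position of Car2, the one at 119 included. Car8 had 2 of the 3 (H94R), Car10 had 1 (H94R and H119Q) and Car11 had none (H94R, H96L and H119Q), where the Car2 residue is written first and the member's residue last. In translated sequence, the cytosolic enzymes were closest to Car2, with 57.4% identical residues for Car13, 56.9% for Car3 and 55.0% for Car7. Car8 followed at 43.3%, and the membrane-bound Car14, Car12 and Car4 were at 38.5%, 37.5% and 36.6%. The neurexin ligands Car10 and Car11 were 56.7% identical to each other and only 33.9% and 37.0% identical to Car2. Over the 45 pairs, identity ran from 25.7% (Car4 and Car10) to 60.8% (Car3 and Car13), with a median of 36.1%.

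Total counts were between 18737230 and 24036915 in the control libraries and between 17958641 and 35191912 in the dcKO_Nex-Cre libraries. Smarcc2 fell to 56.9% of control (log2 fold change -0.81, adjusted p = 0.00267 by edgeR's quasi-likelihood test) and Smarcc1 to 69.2% (log2 fold change -0.53, adjusted p = 0.0348). Cortical projection neuron markers were present in every library. Their summed level was 1636 to 1895 CPM in control and 1363 to 1577 CPM in dcKO_Nex-Cre libraries (exact permutation p = 0.0286, or 0.124 adjusted over 13 marker lists). None of the 13 lists passed 0.05 after adjustment. As 0.0286 is the smallest p that 70 regroupings allow, a list that separated the groups alone could not pass. No absence of a shift is read from this. The list of 9 genes includes Neurod6, from whose locus the Cre is expressed, and the part of Neurod6 in the sum was not tested. The median log2 fold change of the list was -0.065, with 1 gene called lower by edgeR, beside 0.51% of all genes tested. CPM is the count of a gene scaled to the library's total reads, with TMM normalization between libraries. Control replicate 2 and dcKO_Nex-Cre replicate 4 stood apart from the rest of their groups, with 6.87% and 6.15% of counts from mitochondrial genes against 2.33% to 4.24% in the other 6 libraries. The files' lane tag was 2 for all control libraries and for dcKO_Nex-Cre replicates 1 and 2, and 8 for dcKO_Nex-Cre replicates 3 and 4.

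Among the 9 tested members, Car4 was the one called higher in the dcKO_Nex-Cre cortex, at 178% of control, and none was called lower. The other 8 tested members lay between 72.5% and 103% of control, and Car13, which was not tested, was at 109%. Across all genes tested, 61 were called higher (0.375%) and 83 lower (0.51%) at an adjusted p under 0.05, and as Car4 was chosen on this contrast nothing is read from 1 call in 9. At an unadjusted p under 0.05, 1 member was lower (Car8), beside 7.05% of all genes, and no member was called lower by DESeq2 or limma-voom either. Of the 9 tested members, 2 had a log2 fold change above 0 and 7 below, with a median of -0.275 beside 0.004 over all genes tested.

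**Figure D1:**
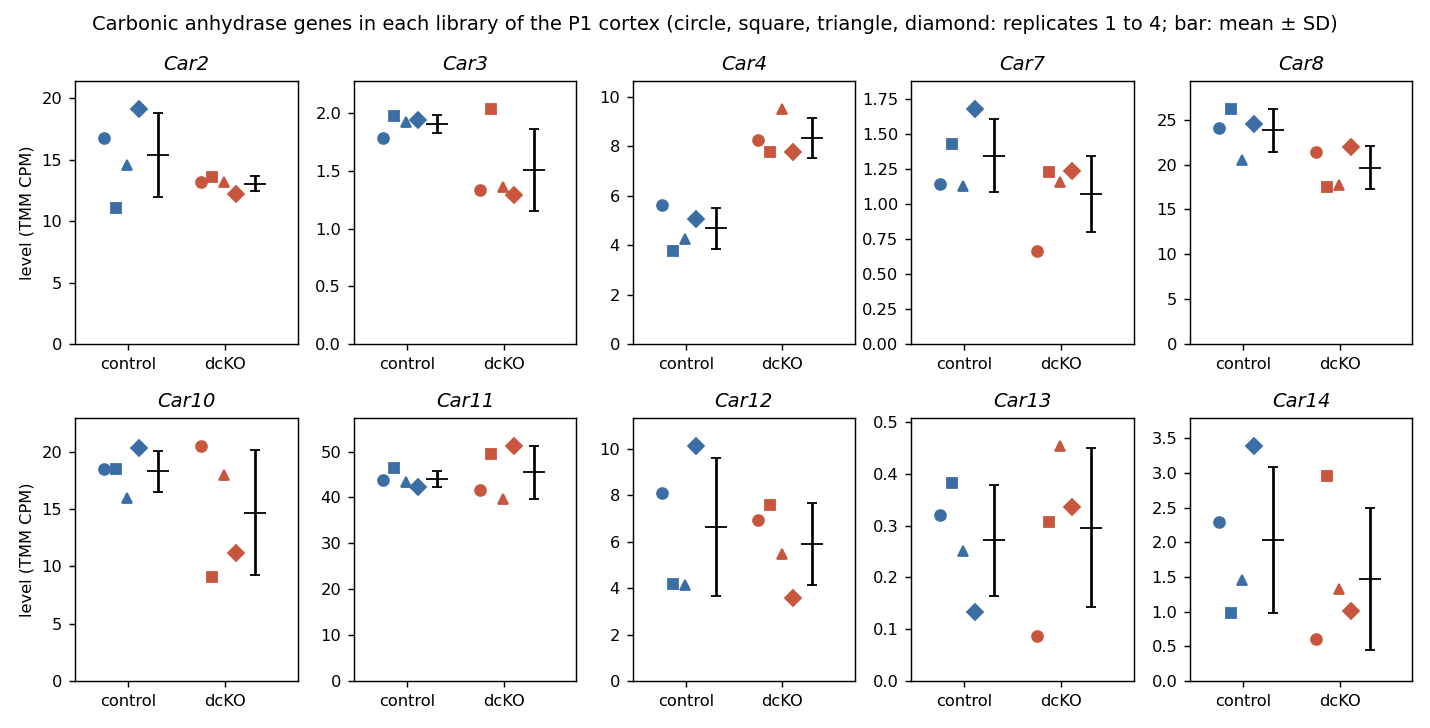
Level of each carbonic anhydrase gene (TMM-scaled CPM, y axis from 0) in the 4 control (blue) and 4 dcKO_Nex-Cre (red) libraries, with the mean ± SD of each group as a black bar. The groups do not overlap for Car4, whose control libraries lie between 3.78 and 5.63 CPM and dcKO_Nex-Cre libraries between 7.75 and 9.49 CPM, and they overlap for the other 9 genes.

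Car4 (ENSMUSG00000000805, chr11:84957786-84966044, plus strand) encodes the enzyme that faces the extracellular space and, in capillaries, the blood. Its level was 5.63, 3.78, 4.26 and 5.07 CPM in control replicates 1 to 4, and 8.26, 7.78, 9.49 and 7.75 CPM in dcKO_Nex-Cre replicates 1 to 4. Each dcKO_Nex-Cre library was above each control library, a pattern that 3.99% of all tested genes showed. The means were 4.68 ± 0.827 CPM (SD, n = 4) in control and 8.32 ± 0.816 CPM (SD, n = 4) in dcKO_Nex-Cre. On the log2 scale the difference was 0.83 (SE 0.15, edgeR adjusted p = 0.0339), which is the value that chose the gene. It rested on 69 to 123 reads per control library and 138 to 285 per dcKO_Nex-Cre library.

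Fits on fewer of the same libraries are not independent of the value that chose Car4, and they are given for the limits they set. The call was lost without any one of control replicates 1 to 4 or dcKO_Nex-Cre replicates 1 to 3, and was kept without dcKO_Nex-Cre replicate 4, with log2 fold changes of 0.75 to 0.93. Within lane tag 2, where 4 control libraries met 2 dcKO_Nex-Cre libraries, the log2 fold change was 0.78 and the call was lost. No within-lane value could be had for lane tag 8, which holds dcKO_Nex-Cre libraries alone.

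As capillary endothelium is where Car4 is best known in brain, the endothelial transcripts of each library are given beside it. The summed level of 12 endothelial markers was 171 to 251 CPM in control and 226 to 308 CPM in dcKO_Nex-Cre libraries, with overlap between the groups (two-sided exact permutation p = 0.114, or 0.212 adjusted over 13 marker lists). In that list 11 of 12 genes had a log2 fold change above 0, beside 50.9% of all genes tested, with a median of 0.236. None was called by edgeR, and 3 of 12 were higher at an unadjusted p under 0.05, beside 6.59% of all genes tested. The barrier transporter Slc2a1 came nearest, at 42.2 ± 5.56 CPM in control and 68.2 ± 12.7 CPM in dcKO_Nex-Cre (SD, n = 4, edgeR adjusted p = 0.0504). Ly6c1 and Abcb1a, also higher at an unadjusted p under 0.05, were at 168% and 152% of control. The tight junction gene Cldn5 was at 52.3 ± 7.94 and 54.0 ± 5.12 CPM (SD, n = 4), and Slco1a4, the 1 gene below 0, was at 67.1% of control. Car4 per 100 CPM of the endothelial list was 2.36, 2.21, 1.70 and 2.12 in control and 2.90, 2.52, 3.53 and 3.43 in dcKO_Nex-Cre libraries. That ratio did not overlap between the groups, with means of 2.10 ± 0.284 and 3.10 ± 0.471 (SD, n = 4). The numerator of the ratio is the Car4 level that chose the gene, so its separation supports nothing. Pericyte markers, from the cells that wrap the same capillaries, summed to 213 ± 27.8 CPM in control and 188 ± 11.8 CPM in dcKO_Nex-Cre libraries (SD, n = 4; exact permutation p = 0.143). In bulk libraries a different number of cells of a type and a different amount of RNA per cell cannot be told apart.

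The other membrane-bound enzymes, Car12 (chr9:66713686-66766845, plus strand) and Car14 (chr3:95897768-95904691, minus strand), varied most between control libraries among the tested members. Car12 was at 8.11, 4.16, 4.13 and 10.1 CPM in control replicates 1 to 4 and at 6.96, 7.59, 5.49 and 3.59 CPM in dcKO_Nex-Cre replicates 1 to 4. Control replicates 1 and 4 were high, and the groups overlapped throughout. The log2 fold change was -0.16 (SE 0.31), smaller than its error, and it turned positive without control replicate 4 (0.12), without dcKO_Nex-Cre replicate 4 (0.014) and within lane tag 2 (0.13). Car14 was at 2.29, 0.985, 1.46 and 3.39 CPM in control and at 0.609, 2.95, 1.32 and 1.01 CPM in dcKO_Nex-Cre libraries. Here too control replicate 4 was highest, followed by dcKO_Nex-Cre replicate 2, and the log2 fold change of -0.48 was as large as its SE of 0.48. It ran from -0.11 without control replicate 4 to -1.09 without dcKO_Nex-Cre replicate 2. The coefficient of variation among control libraries was 45.1% for Car12 and 51.9% for Car14, where counting error alone would give 8.29% and 14.9%.

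The libraries highest in choroid plexus transcripts were also the highest for these membrane enzymes. Ttr, the thyroid hormone carrier made in bulk by choroid plexus epithelium, was at 718, 14.0, 89.0 and 1305 CPM in control and at 12.4, 543, 4.83 and 2.86 CPM in dcKO_Nex-Cre libraries. Control replicates 1 and 4 and dcKO_Nex-Cre replicate 2, the 3 libraries over 500 CPM of Ttr, were also the 3 highest for Car12 and for Car14. In the other libraries Car12 did not follow Ttr. It was at 6.96 CPM in dcKO_Nex-Cre replicate 1, with Ttr at 12.4 CPM, and at 4.13 CPM in control replicate 3, with Ttr at 89.0 CPM. The whole list of 10 choroid plexus markers summed to 28.8 to 1376 CPM in control and 11.3 to 572 CPM in dcKO_Nex-Cre libraries, and its part in the levels of Car12 and Car14 was not tested. Without those 3 libraries the log2 fold change of Car12 was 0.38, against -0.16 with them. For Car4 it was 1.08 without them, and the call was lost with 2 control and 3 dcKO_Nex-Cre libraries left. Car14 also shares 445 exon bases with Aph1a, a gamma-secretase subunit gene on the opposite strand, and as the strand setting of the counting is not given in the sources used here, reads of the 2 genes cannot be told apart there. Aph1a was at 5.59 to 7.55 CPM in control and 5.59 to 6.96 CPM in dcKO_Nex-Cre libraries.

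**Figure D2:**
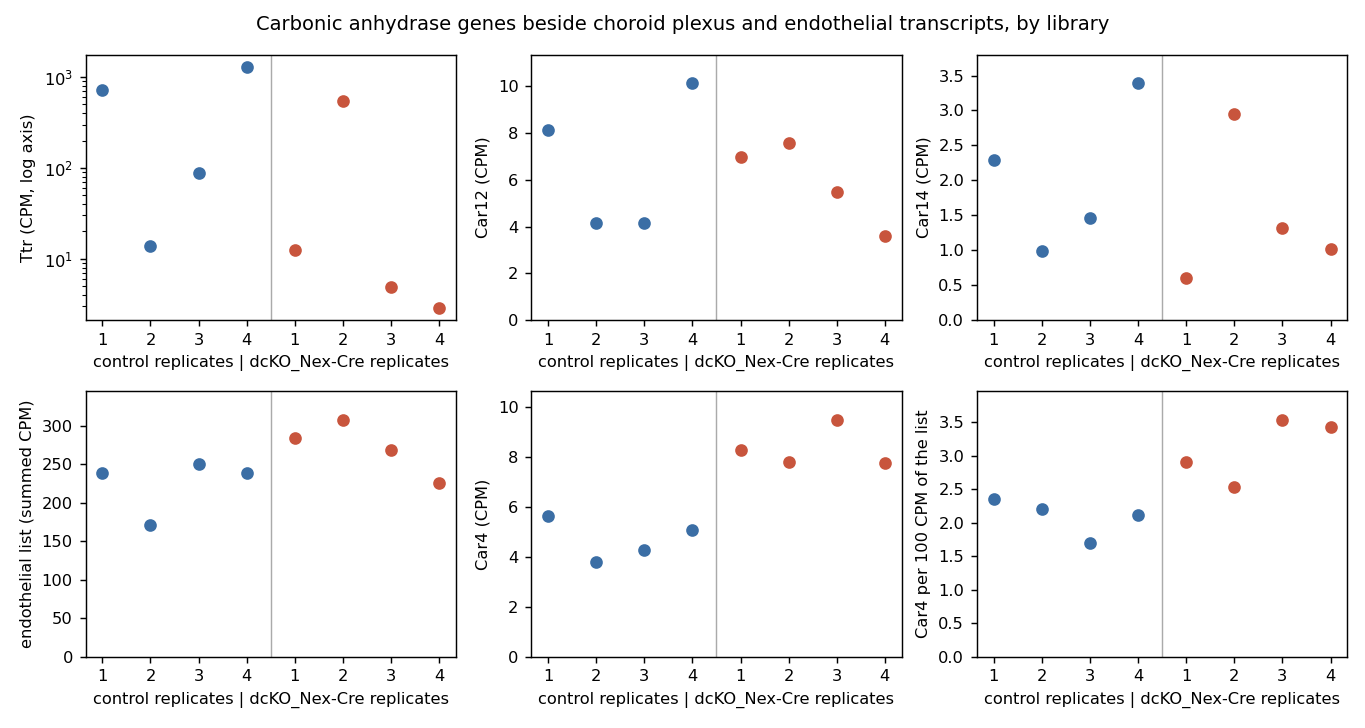
Levels by library, control replicates 1 to 4 left of the grey line and dcKO_Nex-Cre replicates 1 to 4 right of it: Ttr (log axis), Car12 and Car14 in the upper row, and the summed endothelial list, Car4 and Car4 per 100 CPM of that list in the lower row, all in CPM from 0 but for Ttr. The libraries with Ttr over 500 CPM are the 3 highest for Car12 and Car14. Car4 per 100 CPM of endothelial transcripts is 1.70 to 2.36 in control and 2.52 to 3.53 in dcKO_Nex-Cre libraries. This ratio holds the Car4 values that chose the gene.

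Of the cytosolic enzymes, Car2 (chr3:14886273-14900770, plus strand), the fast and widely expressed isoform, was at 16.8, 11.1, 14.6 and 19.1 CPM in control and at 13.2, 13.6, 13.2 and 12.2 CPM in dcKO_Nex-Cre libraries. The dcKO_Nex-Cre values lay within the control range, close together, and the log2 fold change was -0.24 (SE 0.15). The 2 highest control values, in replicates 1 and 4, were in libraries with over 500 CPM of Ttr, and without the 3 such libraries the log2 fold change was -0.0022. The part of choroid plexus, a known site of Car2, was not tested. Markers of the oligodendrocyte lineage, a known site of Car2, summed to 256 to 349 CPM in control and 335 to 428 CPM in dcKO_Nex-Cre libraries (exact permutation p = 0.114, adjusted 0.212), and of these Cspg4, a proteoglycan of oligodendrocyte precursors and pericytes, was called higher (log2 fold change 0.56, edgeR adjusted p = 0.0355). The beta-globin gene Hbb-bs, from erythrocytes that also hold Car2, was at 71.8 CPM on average in control and 83.3 CPM in dcKO_Nex-Cre libraries. In dcKO_Nex-Cre replicate 4 Hbb-bs was at 141 CPM, against 51.9, 71.0 and 69.9 CPM in replicates 1 to 3. The 10 erythroid markers summed to 233 to 430 CPM in control and 210 to 282 CPM in dcKO_Nex-Cre libraries (exact permutation p = 0.0857, adjusted 0.212). Of the 6 tested, 5 had a log2 fold change above 0 and 1 was called lower by edgeR, beside 0.51% of all genes tested.

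Car3 (chr3:14863512-14872523, plus strand), the slow isoform of muscle and fat, was at 1.79, 1.97, 1.92 and 1.94 CPM in control and at 1.33, 2.03, 1.36 and 1.29 CPM in dcKO_Nex-Cre libraries. In 3 dcKO_Nex-Cre libraries it was below every control value, while replicate 2 was above them all, so the groups overlapped; the log2 fold change was -0.33 (SE 0.20). Skeletal muscle markers were low, with 8 of 11 under 1 CPM in every library and none at 0 in all of them, and summed to 12.1 to 13.4 CPM in control and 8.25 to 11.9 CPM in dcKO_Nex-Cre libraries. That sum did not overlap between the groups, with an exact permutation p = 0.0286, the smallest that 70 regroupings allow, and 0.124 adjusted over the 13 lists. The 6 adipocyte markers were under 1 CPM each in every library, and their sum was 0.383 to 0.504 CPM in control and 0.522 to 0.728 CPM in dcKO_Nex-Cre libraries (exact permutation p = 0.0286, adjusted 0.124).

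Car7 (chr8:104534689-104550343, plus strand), the neuronal cytosolic enzyme that supplies bicarbonate in maturing cortical neurons, was low at this age. It was at 1.14, 1.42, 1.13 and 1.67 CPM in control and at 0.667, 1.23, 1.16 and 1.23 CPM in dcKO_Nex-Cre libraries. dcKO_Nex-Cre replicate 1 was the lowest and the other 3 lay within the control range; the log2 fold change was -0.35 (SE 0.26), and with 27.6 reads per library on average the spread in control (19.3%) was close to the counting error (18.6%). Car13 (chr3:14641727-14663002, plus strand), another cytosolic enzyme, was counted 7, 7, 6 and 3 times in control and 3, 8, 11 and 6 times in dcKO_Nex-Cre libraries. Those counts are too few to be tested, and a difference was not detectable at this depth. Car13, Car3 and Car2 lie in this order on chromosome 3, with Car1 between Car13 and Car3: gaps of 103213, 55143 and 13749 bases separate the neighbours.

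The 3 related genes had the most reads of the members when averaged over the 8 libraries. Car8 (chr4:8143362-8239041, minus strand), which binds the inositol trisphosphate receptor Itpr1 and is best known from cerebellar Purkinje cells, was at 24.0, 26.2, 20.5 and 24.5 CPM in control and at 21.4, 17.6, 17.7 and 21.9 CPM in dcKO_Nex-Cre libraries. Control replicate 3 was below dcKO_Nex-Cre replicates 1 and 4, so the groups overlapped. The means were 23.8 ± 2.39 and 19.7 ± 2.35 CPM (SD, n = 4), with a log2 fold change of -0.27 (SE 0.11, edgeR adjusted p = 0.307). Its partner Itpr1, which was not among the chosen genes, was at 97.9, 99.8, 112 and 97.5 CPM in control and 164, 119, 129 and 146 CPM in dcKO_Nex-Cre libraries. Every dcKO_Nex-Cre library was above every control library for Itpr1, as in 3.99% of all genes tested. Its log2 fold change of 0.46 (SE 0.10) did not pass the threshold (edgeR adjusted p = 0.0672), and neither did that of Car8.

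Car10 (chr11:93098028-93601749, plus strand) and Car11 (chr7:45699843-45704682, plus strand) encode secreted ligands of neurexins, the presynaptic adhesion receptors. Car10 was at 18.5, 18.5, 15.9 and 20.3 CPM in control and at 20.5, 9.08, 18.0 and 11.2 CPM in dcKO_Nex-Cre libraries. The dcKO_Nex-Cre libraries were spread widely, replicates 2 and 4 below every control library and replicate 1 above them all, with a coefficient of variation of 37.0% against 9.81% in control, and the log2 fold change was -0.31 (SE 0.22). It ran from -0.13 without dcKO_Nex-Cre replicate 2 to -0.52 without dcKO_Nex-Cre replicate 1, and was -0.047 without the 3 libraries with over 500 CPM of Ttr. Car11 was at 43.8, 46.4, 43.5 and 42.2 CPM in control and at 41.6, 49.4, 39.7 and 51.2 CPM in dcKO_Nex-Cre libraries. The control values lay inside the dcKO_Nex-Cre range, the means were 44.0 ± 1.73 and 45.5 ± 5.70 CPM (SD, n = 4), and the log2 fold change was 0.05 (SE 0.09), which turned to -0.0094 without dcKO_Nex-Cre replicate 4. The neurexin genes Nrxn2 and Nrxn3 were not called by edgeR, with log2 fold changes of -0.12 (SE 0.12) and 0.13 (SE 0.095), nor were Ptprz1 (0.00, SE 0.16) and Ptprg (0.00, SE 0.12), receptor phosphatases whose extracellular part holds a carbonic anhydrase-like domain.

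**Figure D3:**
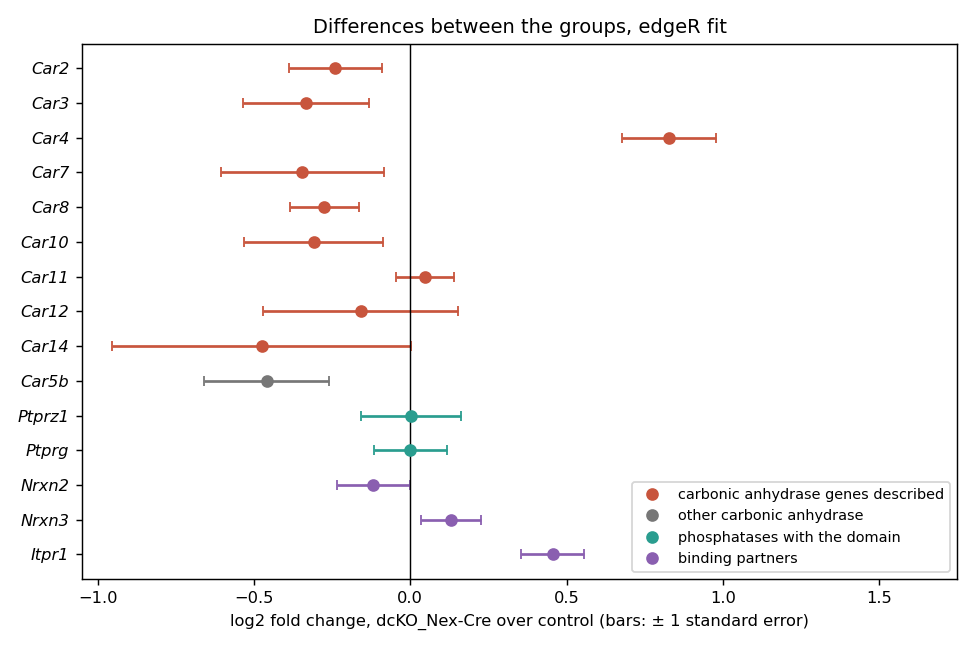
Log2 fold change, dcKO_Nex-Cre over control, from the edgeR fit (x axis, points, with bars of ± 1 standard error) for the 9 tested members, Car5b, the 2 phosphatases with a carbonic anhydrase-like domain, and the binding partners Nrxn2, Nrxn3 and Itpr1. Car4 lies at 0.83 and Itpr1 at 0.46, while the other members lie between -0.48 and 0.05.

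Per kilobase of exon, which allows genes to be compared, the related proteins made up most of the family's transcripts in P1 cortex. In control libraries Car11 was first, at 22.8 ± 0.897 CPM per kb (SD, n = 4), or 52.5% of the sum over the 10 genes. Car2 and Car8 followed at 6.36 ± 1.41 and 6.18 ± 0.621 CPM per kb, with overlapping control libraries. Car10 at 2.88 ± 0.283 and Car4 at 2.38 ± 0.421 CPM per kb overlapped as well. The next 3, Car12 (0.873 ± 0.393), Car14 (0.799 ± 0.415) and Car3 (0.664 ± 0.0283), each overlapped with the next in order, whereas Car7 (0.369 ± 0.0714) and Car13 (0.118 ± 0.0468 CPM per kb) each lay below all control values of the gene before it. Between Car11 and Car2, between Car8 and Car10, and between Car4 and Car12 the control libraries did not overlap either. In dcKO_Nex-Cre libraries the order differed in 1 place, Car4 (4.23 ± 0.415 CPM per kb) standing before Car10 (2.31 ± 0.855).

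**Figure D4:**
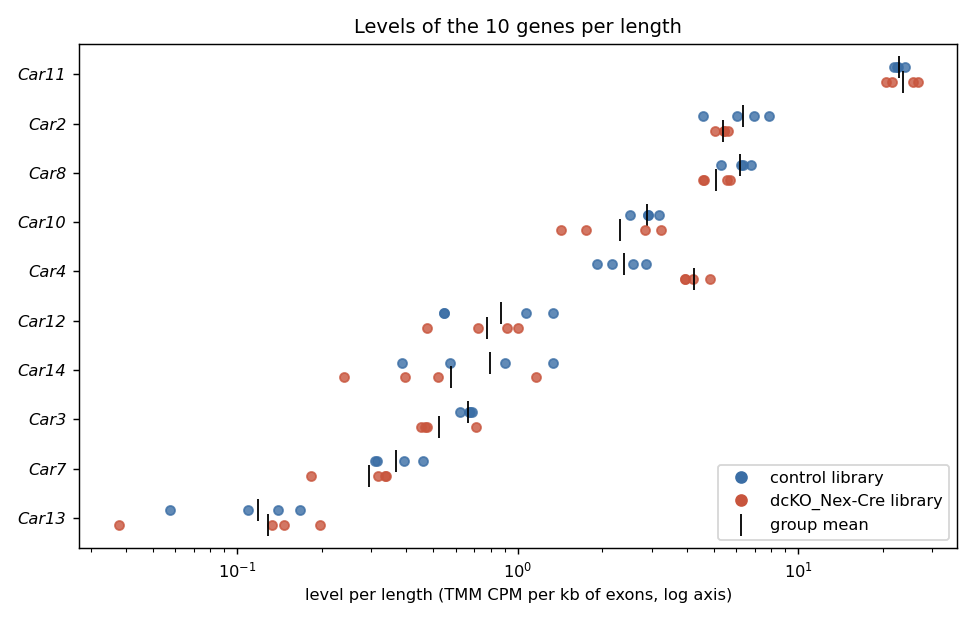
Level per length of the 10 genes (TMM-scaled CPM per kb of exons, log axis) in control (blue) and dcKO_Nex-Cre (red) libraries, with the group mean as a black line, ordered by the control mean. Car11 leads at 22.8 CPM per kb in control, Car13 is last at 0.118, and the dcKO_Nex-Cre libraries of Car4 lie to the right of its control libraries.

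Summed per kilobase, the 7 catalytic members reached 11.6 ± 2.51 CPM per kb in control and 11.9 ± 0.970 in dcKO_Nex-Cre libraries (SD, n = 4). The 3 related members reached 31.9 ± 1.40 and 31.0 ± 2.51 CPM per kb, or 73.4% and 72.2% of the family sum. Neither sum moved by more than its spread between libraries, while within the catalytic sum Car4 went from 2.38 to 4.23 CPM per kb and Car2 from 6.36 to 5.39.

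Of the 6 carbonic anhydrase genes of the mouse that were not among the chosen ones, the mitochondrial Car5b was tested. It was at 3.98, 2.46, 3.63 and 3.57 CPM in control and at 2.61, 2.03, 3.10 and 2.19 CPM in dcKO_Nex-Cre libraries, with overlap and a log2 fold change of -0.46 (SE 0.20, edgeR adjusted p = 0.344). Car1, Car5a, Car6, Car9 and Car15 stayed under 1 CPM in every library and were not tested.

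Carbonic anhydrases work beside carriers that move bicarbonate, protons and lactate across the membrane. Of 33 such acid-base genes, 27 were tested and none was called in either direction by edgeR, with 1 higher and 2 lower at an unadjusted p under 0.05, beside 6.59% and 7.05% of all genes tested. By DESeq2's Wald test 1 was lower and by limma-voom none. The median log2 fold change of the list was 0.03. The sodium-proton exchanger gene Slc9a5 was nearest, at 34.8, 46.7, 30.3 and 41.9 CPM in control and 23.4, 26.4, 22.5 and 28.3 CPM in dcKO_Nex-Cre libraries, with every dcKO_Nex-Cre library below every control library, as in 4.01% of all genes tested (log2 fold change -0.61, SE 0.13, edgeR adjusted p = 0.0641). It was singled out after its values were seen, as was Slc4a10, a neuronal sodium-bicarbonate transporter (-0.31, SE 0.11, edgeR adjusted p = 0.272). Among the most abundant per length were Bsg, the chaperone of the lactate carriers, at 179 ± 22.9 and 182 ± 4.56 CPM per kb, and the exchanger scaffold Slc9a3r1 at 16.4 ± 3.77 and 17.2 ± 4.68 in control and dcKO_Nex-Cre libraries (SD, n = 4), with log2 fold changes of 0.03 and 0.08.

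The genes whose level followed that of Car4 most closely from library to library, after each group's mean was removed, were Atad1 (Pearson's r = 0.986), Vstm2b (0.951), the pseudogene Atp6v0c-ps2 (0.948), Mcm9 (0.944) and Gpc5 (0.942). These are the highest of 12042 genes compared over 8 libraries that share 2 group means, and are given as a description. Their own log2 fold changes between the groups, from -0.33 to 0.30, did not pass the threshold.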

How the data were processed

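Total RNA of whole P1 cortex was isolated with TRIZOL and made into TruSeq RNA v2 libraries. For every library, the authors deposited whole-number read counts by Ensembl gene ID, not normalized; their notes name the mm10 build, and the aligner, counter and strand setting are not given in the sources used here. Of 48709 gene IDs, 48349 matched GENCODE M21 (GRCm38), which gave symbols, positions, exon lengths and coding sequences; 30127 had a count.

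Counts past edgeR's filterByExpr (16287 genes) were TMM-scaled and fitted with the quasi-likelihood test (edgeR 4.0.16, R 4.3.3, robust, group as the only term); p-values were adjusted by Benjamini-Hochberg over all genes tested at 0.05. CPM are normalized to TMM library sizes, and levels per kb divide them by the union of exons. The fit was tested on simulated data. Alternatives used DESeq2 1.42.0, limma-voom 3.58.1, other filters, fewer libraries, and replicate number as a block. Summed markers were compared by two-sided exact permutation over 70 regroupings. Proteins were translated from coding sequences and aligned with BLOSUM62 (Biopython 1.88) in place of a protein table, which was not used here.

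No pair of libraries agreed within counting error (chi-square per degree of freedom at least 3.77), so each counted as 1 sample. Same-numbered libraries deviated together with correlations of -0.182 to 0.27, each below the highest with a library of another number (0.197 to 0.444). As that highest value is picked from several, this cannot show whether the numbers mark litters or batches. The numbers were not used as pairs in the main fit. Lane tags were read from file names.

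The members, gene lists and tests were chosen with earlier results of these data known. Named genes were all members, other carbonic anhydrases, phosphatases and partners on the lists, the targeted genes, acid-base genes past 0.05 or with the highest 3 levels per kb, markers where a list is described, and the 5 genes most like Car4 (over 100 mean counts); some results that these rules name are not reported here.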

Additional observations from a re-analysis of the deposited data

Results flagged for a closer look

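In 6 of 50 groups of 4 libraries, the highest or lowest library stood far from the other 3 by Dixon's criterion, where chance gives about 1 group in 20, or 2.5. Among the members, Car3 was at 2.03 CPM in dcKO_Nex-Cre replicate 2 against 1.29 to 1.36 in the other 3, and Car7 was at 0.667 CPM in dcKO_Nex-Cre replicate 1 against 1.16 to 1.23. Choroid plexus markers summed to 572 CPM in dcKO_Nex-Cre replicate 2 against 11.3 to 22.6 CPM in the others of that group. Control replicate 2 stood apart in 3 marker sums: 171 CPM for endothelial markers against 239 to 251, 256 CPM for oligodendrocyte lineage markers against 338 to 349, and 949 CPM for interneuron markers against 806 to 827.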

How the results depend on the processing

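As Car4 was chosen on this contrast, its direction in other fits is no sign of stability; its call was kept in 6 of 16 alternatives. Its log2 fold change was 0.84 with the replicate block, 0.78 in lane tag 2, 1.08 without the 3 libraries high in choroid plexus transcripts, and 0.75 to 0.93 without 1 library. Leaving out the choroid plexus libraries was chosen after seeing the data; the other alternatives were planned. The number of members called higher, 1, was 0 with the replicate block, in lane tag 2 and without the choroid plexus libraries, and 0 to 1 without 1 library; 0 were lower throughout. Over all genes, 61 called higher became 215 by DESeq2's Wald test, 109 with no filter, 21 with the replicate block, 140 in lane tag 2, 8 without the choroid plexus libraries and 9 to 659 without 1 library (659 without dcKO_Nex-Cre replicate 4). The 83 called lower became 279, 150 and 33 under the first 3 of these, 1 without the choroid plexus libraries and 9 to 619 without 1 library. Acid-base genes called higher, 0, became 1 in lane tag 2 and 0 to 2 without 1 library; those lower, 0, became 1 by the Wald test and with no filter, and 0 to 1 without 1 library. Direction turned for Car11 (-0.0094 to 0.11 without 1 library, lowest without dcKO_Nex-Cre replicate 4, and -0.025 without the choroid plexus libraries) and Car12 (0.13 in lane tag 2, -0.33 to 0.12 without 1 library, above 0 without control replicate 4 or dcKO_Nex-Cre replicate 4, 0.38 without the choroid plexus libraries); the cause was not tested. Ranks by level per kb kept their order with the longest transcript as length, and the replicate block changed the call of no member but Car4. Without 1 library the log2 fold change ran from -0.36 to -0.12 for Car2, -0.51 to -0.27 for Car3, -0.43 to -0.15 for Car7 and -0.34 to -0.22 for Car8. Car7 and Car13, at 27.6 and 6.38 reads per library on average, are limited by depth.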
